A study of Mus musculus with 42 samples.

Results

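The GM-CSF and IL-3 receptor subunits were followed as 4 genes, Csf2rb, Csf2rb2, Csf2ra and Il3ra, of 26811 genes in the count table. They were chosen by name, as the chains of the receptors for the cytokines GM-CSF and IL-3, and all 4 passed the filter on low counts. Csf2rb and Csf2rb2 are near-identical neighbors between which reads were divided, so that their sum was also tested as if it were 1 gene. RNA was sequenced from 42 tumors of the mouse colon carcinoma line MC38, each grown under the skin of a female CC075/UncJ x C57BL/6J F1 mouse (CC75xB6) that was 8 to 12 weeks old at injection. All mice are of 1 hybrid background, made by crossing the recombinant inbred line CC075/UncJ with C57BL/6J.

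The 5 groups were named isotype control (5 tumors), aPD1 (6 tumors), aPD1 + aGMCSF (9 tumors), aPD1 + aIL2RB (11 tumors) and aPD1 + aGMCSF + aIL2RB (11 tumors). Blocking antibody to GM-CSF (aGMCSF, 100 ug), to the IL-2 and IL-15 receptor chain IL2RB (aIL2RB, 200 ug) or a matching isotype was given into the peritoneum from engraftment on, every 3 days, up to a tumor size of 75 to 110 mm3. Each mouse then had 1 dose of 200 ug of antibody to PD-1 (aPD1) or of isotype, and tumors were taken 48 h later. Per the labels, mice without a blocking antibody had its matching isotype. Totals per tumor ranged from 7155486 counts, in replicate 4 of the double blockade, to 24101674, and the next lowest was 15109227. The labels call the replicates biological. Results are also given within 2 sets of tumors, those with lower and those with higher replicate numbers in each group (22 and 20 tumors). This division was made with earlier results of these data known, so p-values between the sets describe a split not fixed in advance. The share of all genes called between these sets was 0.248% to 1.02% in the isotype, aPD1 and aPD1 + aGMCSF groups and 15.9% and 14.9% in the groups with aIL2RB and with both antibodies. Averaged over the 5 groups, 21.6% of all genes were called between the sets. The groups with low shares had 2 to 5 tumors per set and those with aIL2RB 5 or 6, so the shares do not compare the groups. The labels do not name the sets, which are therefore not called a batch. Among markers of the injected line and of epithelium, Shisal2b was counted in every tumor (117 to 651 counts), whereas Epcam, Krt8 and Krt18 were at 0 counts in at least 1 tumor. Averaged over the groups, Krt8, Krt18 and Epcam were higher in the second set (log2 differences 4.63, 4.14 and 2.17, all called by edgeR). Shisal2b was not called (-0.19). The 4 adipocyte markers were also higher (1.01 to 2.45), and Cd3e (-1.02), Cd8a (-1.15), Cd8b1 (-0.88) and Cd4 (-1.05) lower, all called.

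GM-CSF, IL-3 and IL-5 share a signaling chain. Each cytokine binds its own alpha chain (Csf2ra for GM-CSF, Il3ra for IL-3, Il5ra for IL-5), which then pairs with the common beta chain encoded by Csf2rb. The chains have no kinase of their own, and the beta chain carries JAK2, which activates STAT5, the RAS and MAP kinase pathway and PI3 kinase. Mice have a second beta gene, Csf2rb2, whose product works with Il3ra in the response to IL-3. GM-CSF acts on monocytes, macrophages, granulocytes and dendritic cells, and IL-3 chiefly on basophils, mast cells and hematopoietic progenitors. The study blocked GM-CSF and IL2RB because Csf2rb and Il2rb were among its candidate genes on chromosome 15.

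On GRCm38, Csf2rb (ENSMUSG00000071713) lies at chr15:78325752-78353847 on the plus strand and Csf2rb2 (ENSMUSG00000071714) at chr15:78282507-78305721 on the minus strand. Csf2ra (ENSMUSG00000059326) lies at chr19:61223957-61228429 on the minus strand and Il3ra (ENSMUSG00000068758) at chr14:14346275-14356011 on the plus strand. Il3ra overlaps the antisense gene Gm48860 at its start, and Csf2rb and Csf2rb2 each hold a microRNA gene (Mir7676-2 and Mir7676-1). In the annotated transcripts (GENCODE vM21), the coding sequence of Csf2rb has 2691 bases and that of Csf2rb2 2637, and 95.3% of 2631 aligned bases were identical. Of windows of 100 bases, the read length used, 11% of those in the coding sequence of Csf2rb were found unchanged in that of Csf2rb2. Over whole transcripts the share was 6.96% for Csf2rb and 7.2% for Csf2rb2. No window of Csf2ra or Il3ra was found in either. The longest coding run shared without a change, 242 bases long, is shown because a read within it cannot be placed in 1 of the pair. It lies at chr15:78348577-78348818 in Csf2rb, within 1 exon, and on the opposite strand at chr15:78284630-78284871 in Csf2rb2.
shared run, 5′ to 3′: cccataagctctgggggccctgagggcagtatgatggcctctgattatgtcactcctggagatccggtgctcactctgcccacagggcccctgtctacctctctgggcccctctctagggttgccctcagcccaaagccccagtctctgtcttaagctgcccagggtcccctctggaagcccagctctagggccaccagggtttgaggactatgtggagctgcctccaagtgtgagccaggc

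The gap-free stretch of 90 coding bases in which the pair differs most is shown for contrast, with the 16 differing bases in capitals. It lies at chr15:78338897-78338986 in Csf2rb and at chr15:78294345-78294434 in Csf2rb2.
Csf2rb: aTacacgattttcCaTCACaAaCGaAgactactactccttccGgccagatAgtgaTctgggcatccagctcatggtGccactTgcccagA
Csf2rb2: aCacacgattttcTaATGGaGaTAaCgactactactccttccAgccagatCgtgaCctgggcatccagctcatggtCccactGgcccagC

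The division of reads is visible in the counts. Csf2rb and Csf2rb2 had counts that were not whole numbers in 39 of 42 tumors, whereas their sum was whole in all 42 (496 to 3737 counts), and Csf2ra (234 to 1229 counts) and Il3ra (20 to 145 counts) were whole in all 42. A median of 40.7% of the sum was assigned to Csf2rb2, with a range of 33.9% to 46.4% over tumors.

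All 4 subunits were detected in every tumor, at unequal levels. Levels are given as CPM, which are counts per 1000000 of a TMM-scaled library size, and between genes only as CPM per kilobase of the gene's exons. Over 42 tumors the median was 8.54 CPM per kilobase for Csf2ra, 5.54 for Csf2rb2, 5.17 for Csf2rb and 1.27 for Il3ra. Il3ra was the lowest of the 4 in 42 of 42 tumors. Csf2ra was above Csf2rb in 42 tumors and above Csf2rb2 in 41. Csf2rb2 was above Csf2rb in 22 tumors, so this pair had no fixed order, and with the length of the coding transcript in place of all exons (an alternative chosen after seeing the data) Csf2rb was above Csf2rb2 in 42 of 42. The sum per kilobase exceeded Csf2ra in 38 tumors on the first length and Csf2ra exceeded the sum in 18 on the second, so their order depends on the length used.

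The first comparison asked how aPD1 alone changed the subunits. Csf2rb rose 1.97-fold and Csf2rb2 2.32-fold, Csf2ra rose less, and Il3ra did not pass the test. The sum of Csf2rb and Csf2rb2 was 60.6, 66.5, 64.5, 51.4 and 68.6 CPM in isotype control replicates 1 to 5. In aPD1 replicates 1 to 6 it was 178, 93.2, 100.4, 161, 124 and 132 CPM. Every aPD1 tumor was above every isotype tumor, as for 3.37% of all genes tested. The mean was 62.3 CPM ± 6.78 (SD, n = 5) with isotype and 131 CPM ± 33.3 (SD, n = 6) with aPD1, a 2.11-fold difference (log2 fold change 1.08, SE 0.26, adjusted p = 0.00815 by edgeR's quasi-likelihood test).

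**Figure D1:**
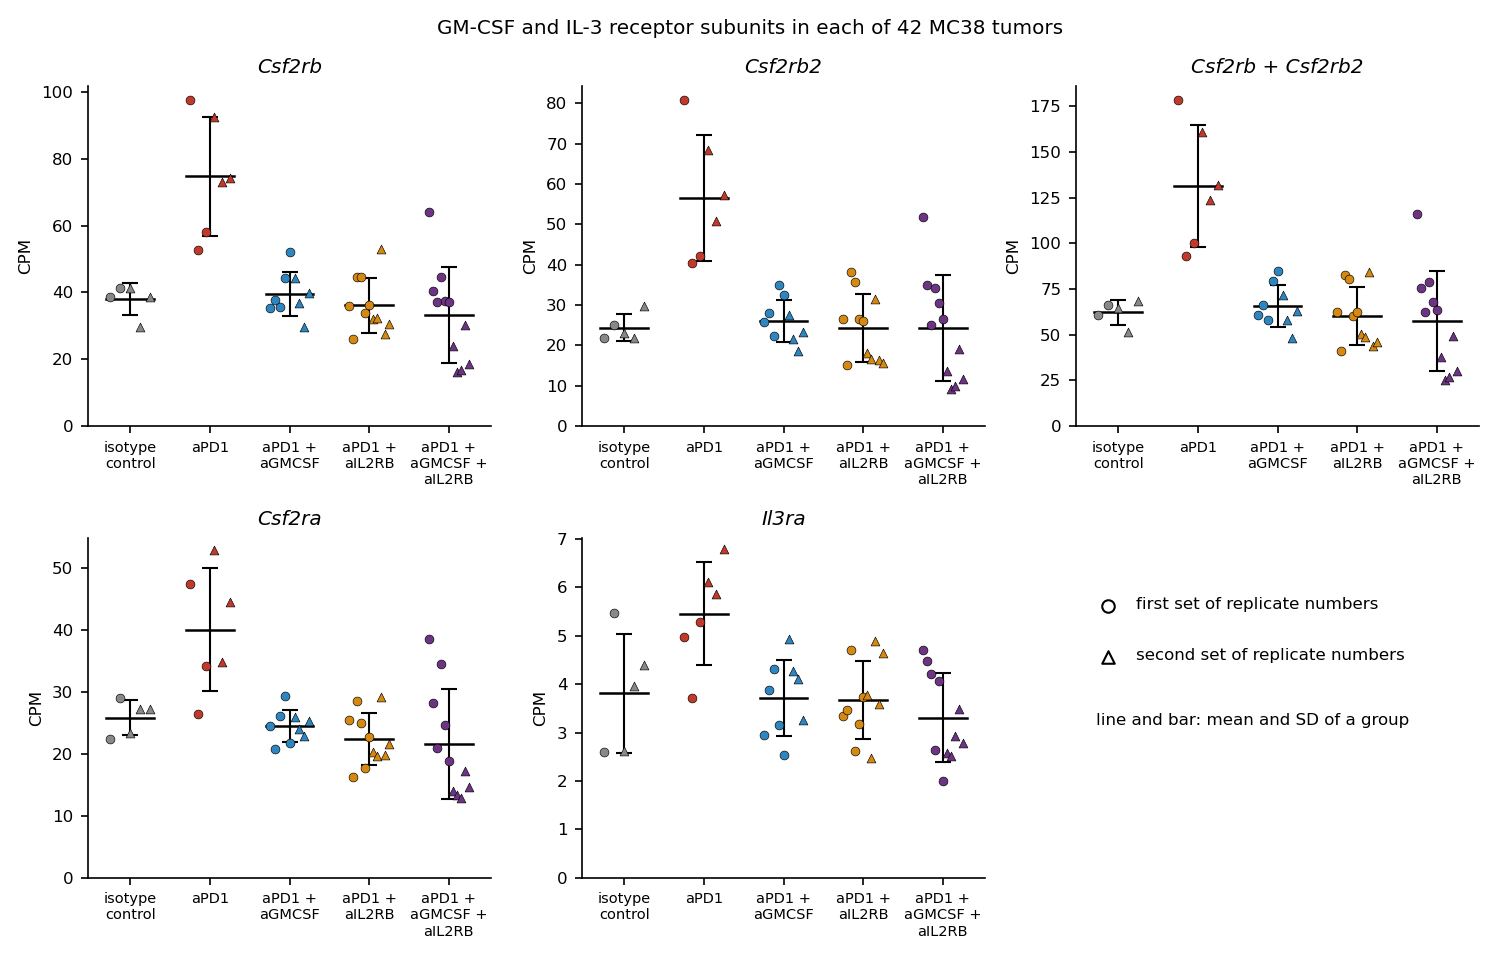
CPM of each subunit gene and of the beta chain sum in each of 42 tumors (points; circles, first set of replicate numbers; triangles, second set) by treatment group, with the mean and SD of the group. All 6 aPD1 tumors lie above all 5 isotype tumors for Csf2rb, Csf2rb2 and their sum, and the 5 second-set tumors of the double blockade hold the lowest values of the sum, 25.5 to 49.4 CPM, in their group.

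Taken one by one, Csf2rb was 37.95 CPM ± 4.81 (SD, n = 5) with isotype and 74.8 ± 17.9 (SD, n = 6) with aPD1 (log2 fold change 0.98, adjusted p = 0.00744). Csf2rb2 was 24.4 CPM ± 3.36 (SD, n = 5) with isotype and 56.6 ± 15.6 (SD, n = 6) with aPD1 (log2 fold change 1.22, adjusted p = 0.011 by edgeR). Neither gene's groups overlapped. Csf2ra, the alpha chain specific to GM-CSF, was 22.3, 29.0, 23.3, 27.2 and 27.2 CPM with isotype. With aPD1 it was 47.4, 26.4, 34.1, 52.9, 34.8 and 44.5 CPM. Of the 6 aPD1 tumors, 5 were above every isotype tumor, and replicate 2 fell within the isotype range. The difference was 1.55-fold (log2 fold change 0.63, SE 0.21, adjusted p = 0.0465 by edgeR), and it did not keep this call in 9 of 11 fits that left out 1 tumor (adjusted p 0.0182 to 0.139). The call stood only without aPD1 replicate 2 or 3. With library size alone as the scaling the adjusted p was 0.0752.

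Il3ra, the alpha chain specific to IL-3, was 2.60, 5.48, 2.62, 3.97 and 4.39 CPM with isotype. It was 4.97, 3.72, 5.28, 6.11, 5.87 and 6.79 CPM with aPD1. The groups overlapped, with 3 of 6 aPD1 tumors above every isotype tumor, and the difference was not called (log2 fold change 0.52, SE 0.21, adjusted p = 0.125 by edgeR, 95% interval 0.10 to 0.94 on the log2 scale). Of all 16932 genes tested in this comparison, 8.71% were called, 6.17% higher and 2.54% lower. In bulk tumors, a change in the number of cells that carry a receptor and a change in its RNA per cell cannot be told apart.

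Added to aPD1, each blockade lowered the subunits. All 4 genes fell in each of the 3 comparisons with aPD1 alone. These comparisons share the 6 aPD1 tumors and are not independent of each other or of the first one. The share of all genes called was 13.5% with aGMCSF (8.75% lower, 4.77% higher), 27.4% with aIL2RB (14.5% lower, 13% higher) and 27.4% with both (14.3% lower, 13.1% higher).

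With aGMCSF the sum ranged from 48.0 to 84.6 CPM over 9 tumors, with a median of 62.9. All 9 tumors were below the lowest aPD1 tumor, at 93.2 CPM, and 2.2% of all genes had groups apart in this way. The sum was 65.5 CPM ± 11.4 (SD, n = 9) and 0.499 times the aPD1 level (log2 fold change -1.004, SE 0.22, adjusted p = 0.00185 by edgeR). Csf2ra was 20.7 to 29.3 CPM (median 24.4), with 8 of 9 tumors below every aPD1 tumor (log2 fold change -0.71, SE 0.18, adjusted p = 0.00565). Il3ra was 2.53 to 4.94 CPM (median 3.89) and 4 of 9 tumors were below every aPD1 tumor. Its log2 fold change was -0.56 (SE 0.18, adjusted p = 0.0377 by edgeR), and this call was lost in 7 of 15 fits that left out 1 tumor (without aPD1 + aGMCSF replicate 1, 4, 5 or 9, or aPD1 replicate 4, 5 or 6; adjusted p up to 0.11).

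With aIL2RB the sum ranged from 41.2 to 84.6 CPM over 11 tumors, with a median of 60.4. All 11 tumors were below every aPD1 tumor, as for 2.98% of all genes. The sum was 0.459 times the aPD1 level (log2 fold change -1.12, SE 0.21, adjusted p = 6.14e-05 by edgeR). Csf2ra was 16.2 to 29.2 CPM (median 21.5), with 9 of 11 tumors below every aPD1 tumor (log2 fold change -0.84, SE 0.17, adjusted p = 0.000173). Il3ra was 2.47 to 4.88 CPM (median 3.59), with 6 of 11 tumors below every aPD1 tumor (log2 fold change -0.57, SE 0.18, adjusted p = 0.0121).

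With both antibodies the spread was wider. The sum ranged from 25.5 to 116 CPM over 11 tumors, with a median of 62.4. Replicate 1, at 116 CPM, was the single tumor not below every aPD1 tumor. The sum was 0.437 times the aPD1 level (log2 fold change -1.19, SE 0.21, adjusted p = 3.34e-05 by edgeR). Csf2ra was 12.9 to 38.6 CPM (median 18.9; log2 fold change -0.90, SE 0.17, adjusted p = 9.02e-05). Il3ra was 1.99 to 4.72 CPM (median 2.94; log2 fold change -0.72, SE 0.18, adjusted p = 0.00197).

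**Figure D2:**
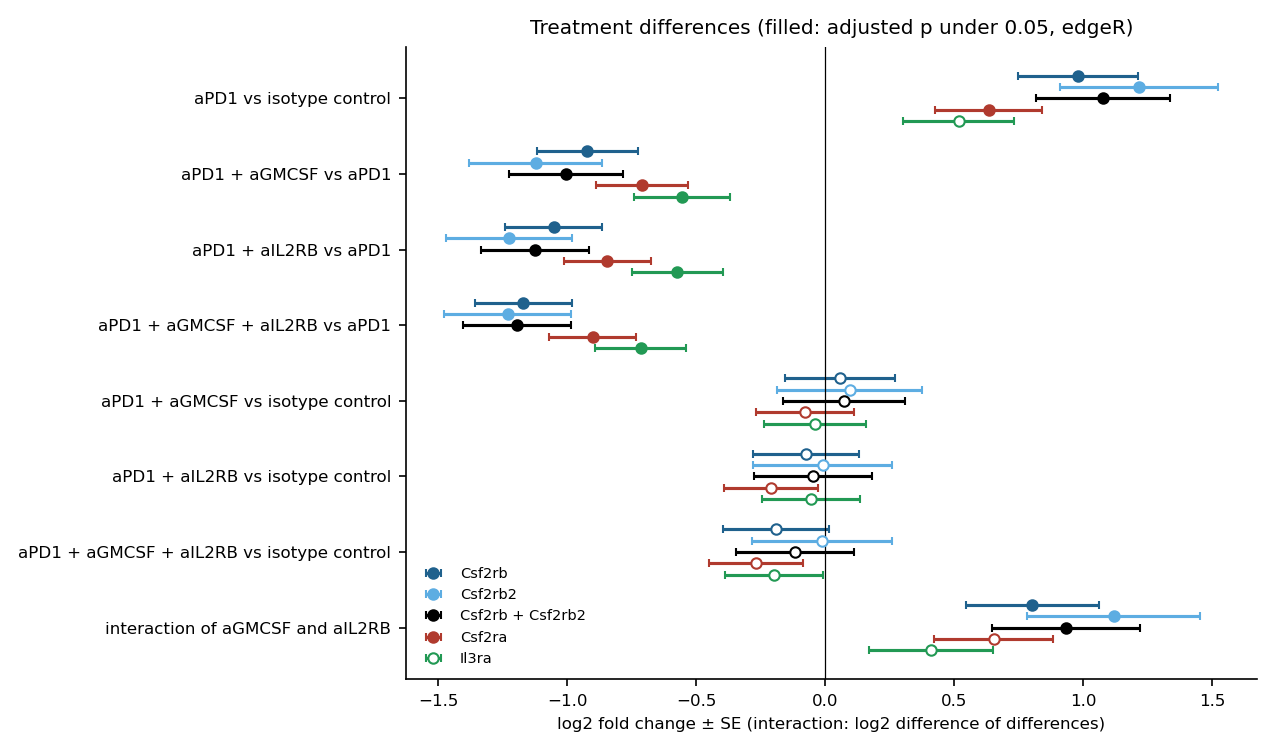
Log2 fold changes (points) with their SE (bars) for the 4 genes and the beta chain sum in 7 comparisons, and the interaction of the 2 blocking antibodies (log2 difference of differences). All 5 features lie above 0 with aPD1 and below 0 with each blockade added to aPD1, while comparisons of the blocked groups with isotype, pooled over both sets, lie between -0.27 and 0.10 and none is called.

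Pooled over both sets of replicate numbers, none of the 4 genes, nor the sum, was called between a blocked group and isotype. At an unadjusted p under 0.05 none passed either, and DESeq2 called none. The sum differed from isotype by 0.07 with aGMCSF (95% interval -0.39 to 0.54), by -0.05 with aIL2RB (-0.50 to 0.40) and by -0.12 with both (-0.57 to 0.33), all on the log2 scale. For Csf2ra these differences were -0.08 (-0.45 to 0.30), -0.21 (-0.57 to 0.15) and -0.27 (-0.63 to 0.09). For Il3ra they were -0.04 (-0.43 to 0.35), -0.06 (-0.43 to 0.32) and -0.20 (-0.57 to 0.18). Of all genes, 0% were called with aGMCSF, 3.2% with aIL2RB and 10.2% with both against isotype. The intervals do not exclude sizable differences: that of Csf2ra with both antibodies reaches -0.63, the size of its difference between aPD1 and isotype (0.63). No member was called among the 3 blocked groups, where 1.52% of genes were called between the single blockades, 2.13% between the double blockade and aGMCSF, and 0.00591% between the double blockade and aIL2RB.

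The interaction is the joint log2 effect of the 2 antibodies less the sum of their single effects. It was 0.93 for the sum (SE 0.29, adjusted p = 0.035 by edgeR), 0.80 for Csf2rb (adjusted p = 0.044) and 1.12 for Csf2rb2 (adjusted p = 0.0323), so that double blockade lowered the beta chains by less than the added single effects. The direction was the same, and was not called, for Csf2ra (0.65, adjusted p = 0.0702) and Il3ra (0.41, adjusted p = 0.303). Of all genes, 8.34% were called, 5.29% as higher. The call for the sum was lost without aPD1 replicate 1, 4 or 6, aPD1 + aGMCSF replicate 3 or 8, or aPD1 + aGMCSF + aIL2RB replicate 1 (adjusted p 0.0141 to 0.0808 over 37 fits). That for Csf2rb2 was lost in 4 of 37 fits and that for Csf2rb in 22. All of these calls were lost in a fit with a term for the replicate number. Within the sets of replicate numbers the interaction of the sum was 1.08 in the first (adjusted p = 0.0354, 2.55% of all genes called) and 0.51 in the second (adjusted p = 0.323, 6.26% called), and the difference between sets was not called (adjusted p = 0.612; 0% of all genes).

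The aPD1 tumors thus held the highest mean of each subunit and no difference between the blocked and isotype groups was called in the pooled fit. The subunits did not move in equal proportion. The ratio of the beta chain sum to Csf2ra was 2.43 ± 0.36 (SD, n = 5) with isotype and 3.30 ± 0.36 (SD, n = 6) with aPD1, and every aPD1 tumor (2.94 to 3.77) was above every isotype tumor (1.89 to 2.76). The difference of 0.44 on the log2 scale was larger than the spread (exact two-sided permutation test, p = 0.00216, the smallest that 5 against 6 tumors can give; adjusted p = 0.0216 over the 10 pairs of groups). It was lower again with aIL2RB (2.68 ± 0.40, n = 11; log2 difference from aPD1 -0.30, exact permutation test, adjusted p = 0.0294) and with both antibodies (2.61 ± 0.46, n = 11; -0.35, exact permutation test, adjusted p = 0.0294). With aGMCSF it was 2.70 ± 0.55 (n = 9; -0.31, exact permutation test, adjusted p = 0.0739), where replicate 5, at 3.90, was above every aPD1 tumor. Without that tumor the difference was -0.37 and called. Without aPD1 replicate 1, 2 or 5 none of the 3 called differences passed, nor did that of the double blockade without its replicate 4 (adjusted p up to 0.0962).

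The ratio of the sum to Il3ra was 17.7 ± 5.86 (SD, n = 5) with isotype, 24.5 ± 6.35 (n = 6) with aPD1 and between 17.02 and 18.8 in the blocked groups, and no pair of groups passed an exact permutation test after adjustment (lowest adjusted p = 0.204). The ratio of Csf2ra to Il3ra had geometric means of 6.12 to 7.27 over the 5 groups and none of 10 pairs passed (lowest adjusted p = 0.806).

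**Figure D3:**
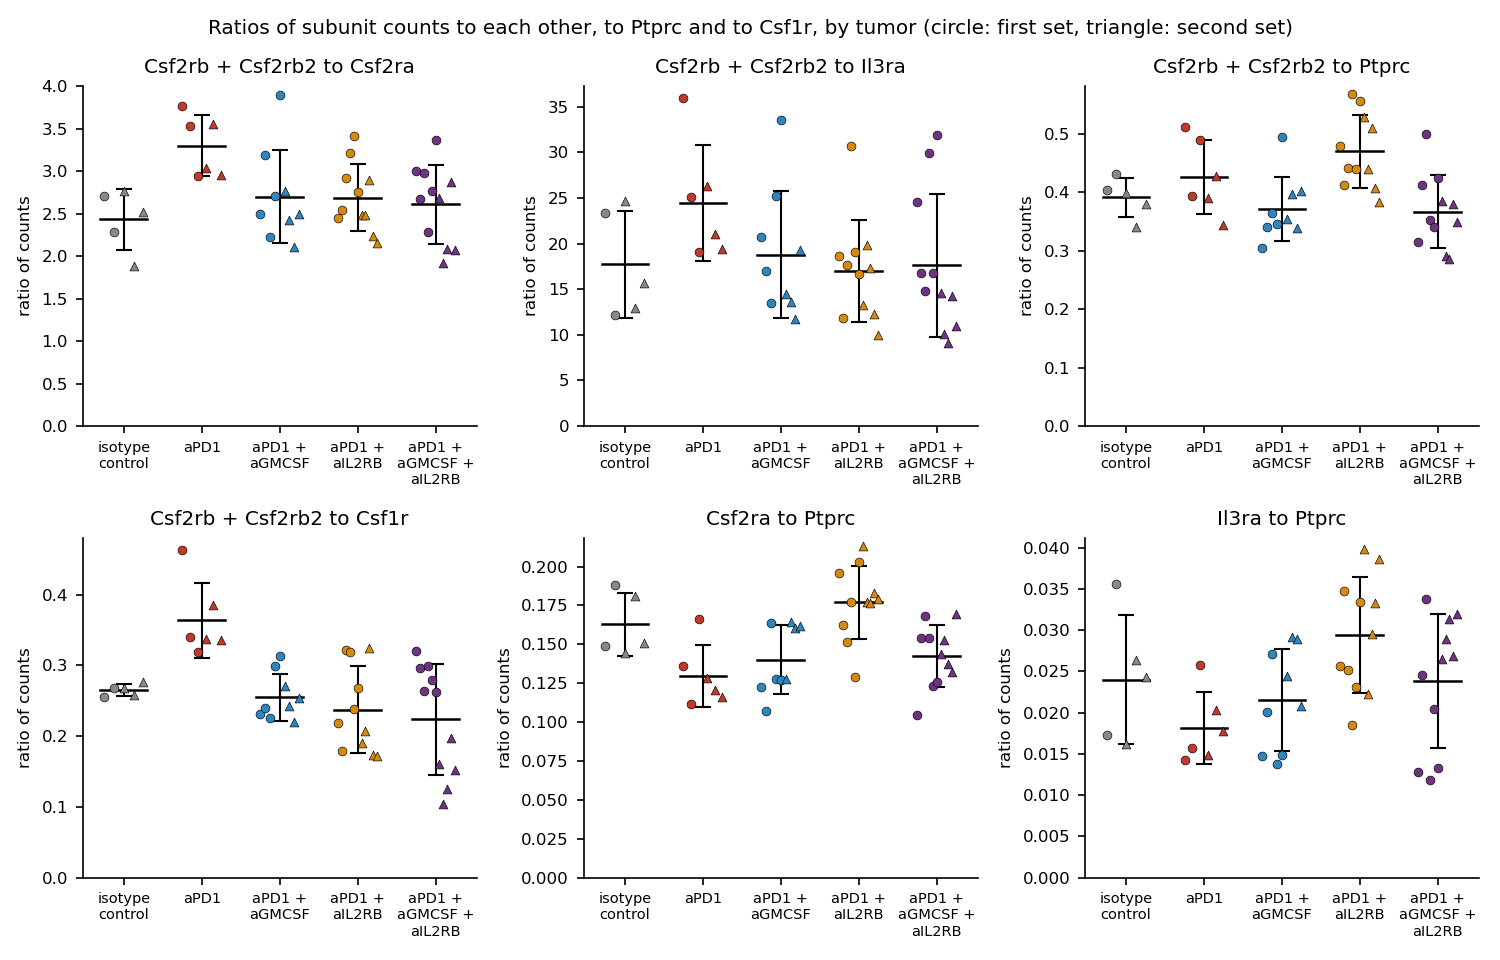
Ratios of counts in each tumor (circles, first set; triangles, second set) with the mean and SD of each group, for the beta chain sum to Csf2ra, Il3ra, Ptprc and Csf1r and for Csf2ra and Il3ra to Ptprc. The ratio of the sum to Csf1r is highest with aPD1, where all 6 tumors are above all 5 isotype tumors, while ratios to Ptprc are highest with aIL2RB.

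Ratios to genes of the cells that carry the receptors were compared next. Ptprc encodes CD45, found on all leukocytes, and Csf1r is the receptor of macrophage growth factor. With aPD1 both genes themselves rose, Ptprc with a log2 fold change of 0.97 and Csf1r of 0.62. Against Csf1r, the sum rose from a ratio of 0.265 ± 0.0085 (SD, n = 5) with isotype to 0.364 ± 0.0533 (n = 6) with aPD1 (log2 difference 0.45, exact permutation test, adjusted p = 0.00722). It was 0.255 ± 0.033 (n = 9) with aGMCSF (log2 difference from aPD1 -0.51, exact permutation test, adjusted p = 0.004), 0.237 ± 0.0616 (n = 11) with aIL2RB (-0.65, adjusted p = 0.00722 by the same exact test) and 0.224 ± 0.0779 (n = 11) with both (-0.78, adjusted p = 0.0139 by the same exact test). All 9 aGMCSF tumors, at 0.219 to 0.313, were below all aPD1 tumors, at 0.319 to 0.463. For Csf2ra to Csf1r no pair was called (lowest adjusted p = 0.0737), and permuting within sets called 3 of 10 pairs. For Il3ra to Csf1r no pair was called (lowest adjusted p = 0.757).

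Against Ptprc the order was different. The sum to Ptprc was 0.391 ± 0.0333 (SD, n = 5) with isotype, 0.426 ± 0.064 (n = 6) with aPD1, 0.372 ± 0.0554 (n = 9) with aGMCSF, 0.470 ± 0.0628 (n = 11) with aIL2RB and 0.367 ± 0.0629 (n = 11) with both. The aPD1 and isotype groups overlapped and the difference was not called (log2 difference 0.11, exact permutation test, adjusted p = 0.464). The aIL2RB tumors were higher than the aGMCSF tumors (0.34, adjusted p = 0.00798 by exact permutation test) and than the double blockade (adjusted p = 0.00798, permutation test). Csf2ra to Ptprc was 0.163 ± 0.0203 (n = 5) with isotype and 0.130 ± 0.0199 (n = 6) with aPD1, lower in spite of the higher CPM of Csf2ra, and this difference was not called after adjustment (log2 difference -0.33, exact permutation test, p = 0.0281, adjusted p = 0.0703). With aIL2RB it was 0.177 ± 0.0235 (n = 11), above aPD1 (log2 difference 0.45, exact permutation test, adjusted p = 0.00808), aGMCSF (0.34, exact permutation test, adjusted p = 0.00951) and the double blockade (permutation test, adjusted p = 0.0091). Il3ra to Ptprc was 0.0240 ± 0.0078 (n = 5) with isotype, 0.0181 ± 0.00435 (n = 6) with aPD1 and 0.0295 ± 0.00703 (n = 11) with aIL2RB (aIL2RB against aPD1 0.70, exact permutation test, adjusted p = 0.021), a call lost without aPD1 replicate 1 or 4. T and NK cells also express Ptprc, and 6 of 7 markers of these cells fell with aIL2RB, where 14.5% of all genes fell. Ncr1, an NK cell receptor, was at 0 counts in all 11 aIL2RB tumors and at 0.503 to 3.54 CPM with aPD1. The log2 fold change was -3.73 for Cd8a, a coreceptor of killer T cells, and -2.88 for Cd3e, of the T cell receptor complex. Their part in the ratios to Ptprc was not tested.

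The tumors of the double blockade fell into 2 ranges that followed the replicate numbers. In the first set (replicates 1 to 6) the sum was 62.4 to 116 CPM, and in the second set (replicates 7 to 11) it was 25.5 to 49.4 CPM, with no overlap, as for 3.95% of all genes with a lower second set. The second set was lower by 1.19 on the log2 scale (SE 0.20, adjusted p = 7.75e-05 by edgeR). As the sets were chosen with the data known, p-values between them are a description of the split. Csf2ra was 18.9 to 38.6 CPM in the first set and 12.9 to 17.2 in the second (log2 difference -0.93, adjusted p = 0.000169). Il3ra was 1.99 to 4.72 and 2.51 to 3.48 CPM, with overlap and no call (-0.38, adjusted p = 0.245). Of all genes, 14.9% were called between these sets within this group. In the other 4 groups no subunit was called between sets, including Csf2rb2 with aIL2RB (-0.51, adjusted p = 0.103), where 15.9% of all genes were called. In isotype, aPD1 and aPD1 + aGMCSF tumors 1.02%, 0.248% and 0.661% were called. Markers of several cell types were also higher in the first set of the double blockade. The macrophage and monocyte markers summed to 2234 to 3121 CPM in the first set and 1472 to 1746 in the second, the neutrophil markers to 11.4 to 30.3 and 5.11 to 9.78, and the conventional dendritic cell type 2 markers to 204 to 307 and 132 to 171. The basophil and mast cell markers summed to 16.8 to 28.3 CPM in the first set and 6.57 to 12.7 in the second, the T and NK cell markers to 9.50 to 53.6 and 0.616 to 4.37, and the endothelial markers to 183 to 211 and 163 to 176. These lists did not overlap between the sets, whereas the sums of the other lists did, as did Ptprc, at 125 to 368 and 86.8 to 130 CPM. The neutrophil and the dendritic cell type 2 sums follow mainly 1 gene each, Csf3r and Sirpa. Their part in the subunit difference was not tested.

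**Figure D4:**
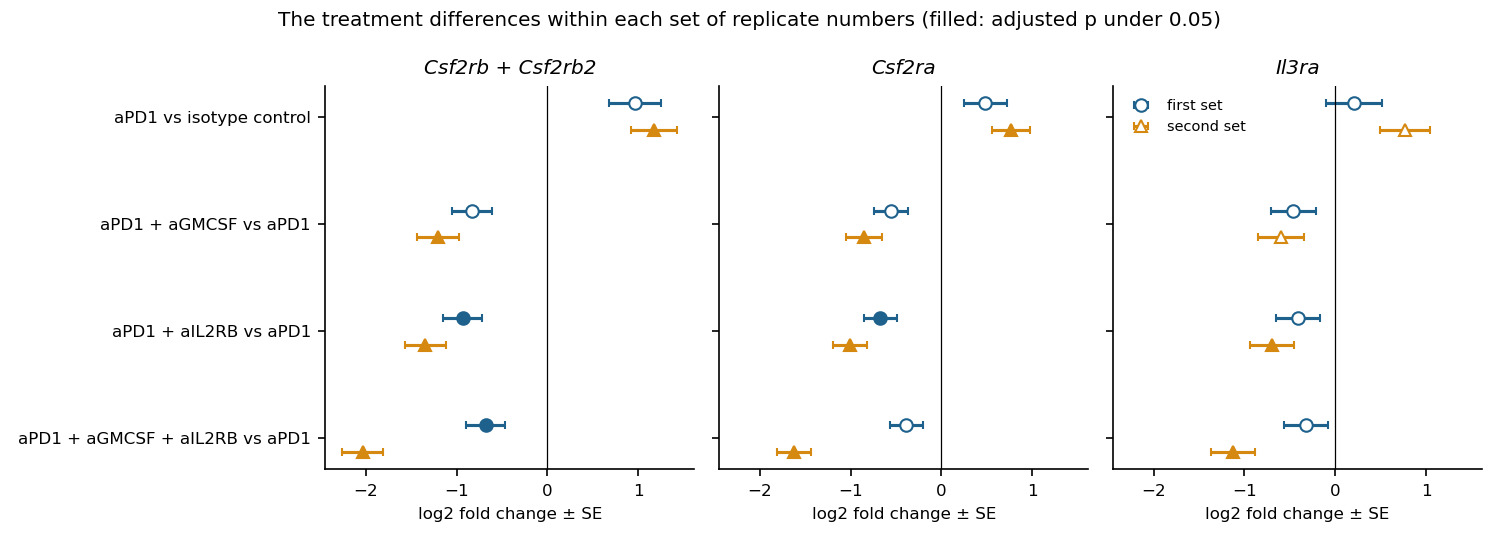
Log2 fold changes with SE within the first (circles) and second (triangles) set of replicate numbers for the beta chain sum, Csf2ra and Il3ra. In aPD1 against isotype and in each blockade against aPD1 all values keep their sign in both sets, and the double blockade differs most between them: the sum is at -0.68 in the first set and -2.04 in the second.

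Within the sets all 4 main comparisons kept their direction for the sum, Csf2ra and Il3ra. With aPD1 the sum rose by 0.96 in the first set (2 against 3 tumors, adjusted p = 0.148 by edgeR, where 0.0591% of all genes were called) and by 1.18 in the second (3 against 3 tumors, adjusted p = 0.00197; 13% of all genes). With aGMCSF it differed from aPD1 by -0.83 (adjusted p = 0.0705; 0.585% of all genes called) and -1.21 (adjusted p = 0.000438; 17.1%), and with aIL2RB by -0.93 (adjusted p = 0.00202; 18.3%) and -1.34 (adjusted p = 1.98e-05; 23.3%). The differences between sets in these 3 comparisons were not called for any subunit, as for all but 0.0709%, 0.00591% and 0.1% of genes. With double blockade the sum differed from aPD1 by -0.68 in the first set (adjusted p = 0.042; 7.8% of all genes) and by -2.04 in the second (adjusted p = 6.43e-09; 30.5%), and the difference between sets, -1.35, was called (SE 0.32, adjusted p = 0.00636 by edgeR; 9.18% of all genes). For Csf2ra the difference between sets was also called (-1.23, adjusted p = 0.00368), with -0.39 in the first set, which was not called (adjusted p = 0.187), and -1.62 in the second (adjusted p = 1.6e-08), whereas for Il3ra it was not called (-0.32 and -1.13, difference -0.81, adjusted p = 0.139).

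Against isotype, the second-set tumors of the double blockade were below it for the sum (log2 fold change -0.86, adjusted p = 0.0102 by edgeR) and for Csf2ra (-0.85, adjusted p = 0.0027), but not for Il3ra (-0.36, adjusted p = 0.381); 11.4% of all genes were called. In the first set the same comparisons gave 0.28 (adjusted p = 0.599), 0.10 (adjusted p = 0.869) and -0.12 (adjusted p = 0.876), with 3.64% of all genes called. The difference between sets in this comparison was called for Csf2rb2 (-1.49, adjusted p = 0.0496; 1.1% of all genes) and not for the sum (-1.14, adjusted p = 0.0905), Csf2rb (-0.91, adjusted p = 0.17), Csf2ra (-0.94, adjusted p = 0.0929) or Il3ra (-0.24, adjusted p = 0.869). In the comparison with aPD1 + aGMCSF it was called for Csf2ra alone (-0.93, adjusted p = 0.0492; 0.821%), and in that with aPD1 + aIL2RB for Csf2rb (-0.97, adjusted p = 0.0365) and Csf2ra (-0.90, adjusted p = 0.0318; 1.94%).

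The division between the beta chains differed between the sets in 2 of 5 groups. Csf2rb2 held 42.6% ± 3.34 (SD, n = 6) of the sum in the first set with aIL2RB and 35.7% ± 1.68 (n = 5) in the second, a difference of 6.86 percentage points (exact permutation test, adjusted p = 0.0216 over 5 groups). With both antibodies it was 43.6% ± 2.23 (n = 6) and 37.4% ± 1.34 (n = 5), a difference of 6.11 points (exact permutation test, adjusted p = 0.0216). The other 3 groups were not called (exact permutation tests, adjusted p 0.0926 to 0.5). The second set less the first was -3.50 percentage points with aGMCSF, -1.19 with aPD1 and 3.54, in the other direction, with isotype. With 2 against 3 isotype or 3 against 3 aPD1 tumors no p under 0.1 can be reached. Between treatment groups, pooled over sets, no pair was called (lowest adjusted p = 0.18, exact permutation test). These tests of the share were chosen after seeing the data. Since reads of the shared runs are assigned by an estimate, the share is less certain than the sum.

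**Figure D5:**
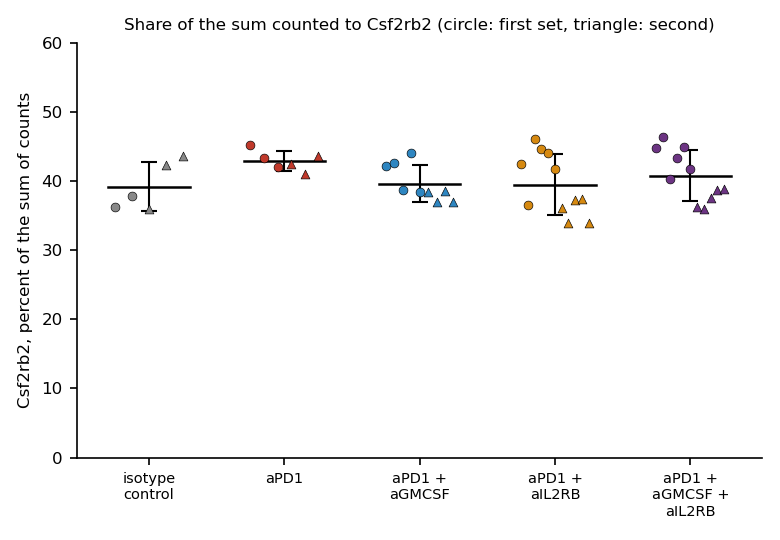
Share of the beta chain sum assigned to Csf2rb2 in each tumor (circles, first set; triangles, second set) with the mean and SD of each group. With aIL2RB and with double blockade the second set averages 35.7% and 37.4%, below the 42.6% and 43.6% of the first.

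With the group means removed, the beta chains and Csf2ra rose and fell together from tumor to tumor. Over 42 tumors the sum and Csf2ra had Pearson's r = 0.86 and Spearman's rho = 0.80 on the log2 CPM scale (permutation within groups, p = 1e-05 for each, the smallest that 100000 draws can give; adjusted p = 3e-05 over 3 pairs). Without the 2 tumors of the double blockade farthest from the median, replicates 1 and 8, r was 0.81. Within the first and second set r was 0.85 and 0.89. Since the sets differ within the double blockade, the means of each set and group were also removed. Then r was 0.76 over all tumors, 0.78 and 0.77 within the sets, and 0.70 without the 2 tumors that were then farthest (aPD1 + aIL2RB replicate 9 and double blockade replicate 1). Csf2ra and Il3ra had r = 0.49 and rho = 0.53 (permutation p = 0.00224 and 0.00069, adjusted p = 0.00336 and 0.00103), with 0.48 and 0.64 within the sets and 0.53 without the 2 farthest tumors. After the set means were also removed r was 0.44 (permutation p = 0.0182, adjusted p = 0.0273), with 0.40 and 0.55 within the sets. On that scale r was 0.30 without double blockade replicates 1 and 6 (permutation p = 0.0964), both of the first set. The sum and Il3ra had r = 0.29 and rho = 0.30 (permutation p = 0.0915 and 0.0748, unchanged by adjustment), and r was 0.30 and 0.52 within the sets and 0.16 without the 2 farthest tumors. With the set means also removed it was 0.23 (permutation p = 0.171), 0.16 and 0.36 within the sets, and 0.10 without the 2 farthest tumors.

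The 5 genes most like the sum from tumor to tumor, by Pearson's r of log2(CPM + 1) less group means over 42 tumors, were Sema4a (0.91), Anpep (0.91), Igsf6 (0.90), Mmp25 (0.90) and Gpr171 (0.90). Anpep encodes CD13, an aminopeptidase of myeloid cells, and Mmp25 a membrane metalloproteinase of leukocytes. Csf2ra ranked 50 on this scale and Ptprc 12. For Csf2ra they were Sirpb1c (0.92), Bcl2a1b (0.91), Ctss (0.90), Laptm5 (0.90) and Ctsh (0.90). Ctss and Ctsh encode cathepsins, which are lysosomal proteases, and Laptm5 a lysosomal membrane protein of blood cells. For Il3ra they were Pdgfb (0.73), Gpsm3 (0.67), Coro1b (0.67), Ctsz (0.67) and Plekho2 (0.66), while Csf2ra ranked 335 and Csf2rb and Csf2rb2 ranked 2307 and 2322. The genes nearest to Il3ra were thus less alike to it than those nearest to the other chains were to them.

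The other genes of the pathway were taken from lists of 56 genes: ligands, other receptors, signal transduction, negative regulators and responsive genes. Of these, 51 were tested. The share of all genes called, against which these counts and those of the lists within them are to be read, was 6.17% higher with aPD1, and 8.75%, 14.5% and 14.3% lower with aGMCSF, aIL2RB and both. With aPD1, 17 rose and none fell (median log2 fold change 0.31, against -0.00 over all genes tested). With aGMCSF 26 fell, with aIL2RB 28 fell and 1 rose, and with both 30 fell and 2 rose. Their medians were -0.34, -0.33 and -0.36, against 0.01, 0.00 and 0.01 over all genes.

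The ligand genes found in the count table were near the limit of detection. Csf2, which encodes GM-CSF, had at most 13 counts in a tumor and was 0.293 CPM ± 0.312 (SD, n = 6) with aPD1 and 0.15 ± 0.11 (n = 5) with isotype, and did not pass the filter. The ligand gene Il3 was not found by name in the count table and has no value here. Il5 had at most 15 counts and was not called in any of the 4 main comparisons (log2 fold change with aPD1 -0.03, adjusted p = 0.986). Il5ra, the alpha chain for IL-5, had at most 11 counts and was not tested.

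Of 4 other receptor genes tested, 3 rose with aPD1. Csf3r, the G-CSF receptor, rose by 1.49 on the log2 scale (adjusted p = 0.00211 by edgeR) and fell by 1.35, 1.57 and 1.39 with aGMCSF, aIL2RB and both. Csf1r rose by 0.62 (adjusted p = 0.000356) and fell by 0.49, 0.50 and 0.53. Il2rg, the chain shared by receptors for IL-2 and related cytokines, rose by 0.95 (adjusted p = 0.0153) and fell by 1.03, 1.47 and 1.43. Il2rb, the gene of the chain bound by aIL2RB, was 41.9 CPM ± 12.7 (SD, n = 6) with aPD1 and 3.63 ± 3.23 (n = 11) with aIL2RB (log2 fold change -3.55, adjusted p = 5.22e-07), and with aPD1 against isotype it was not called (1.12, adjusted p = 0.21).

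In signal transduction, 8 of 23 genes rose with aPD1, and 10, 10 and 12 fell with aGMCSF, aIL2RB and both. Jak2 and Stat5a, the kinase and transcription factor that carry the main signal of the beta chain, were not called in any of these 4 comparisons (with aPD1, 0.09 and 0.03 on the log2 scale, adjusted p = 0.405 and 0.886), nor was Stat5b (0.10, adjusted p = 0.191). Kinases of blood cells moved with the subunits. Syk rose by 1.03 (adjusted p = 0.00333) and fell by 1.03, 1.22 and 1.07. Lyn rose by 0.62 (adjusted p = 0.00468) and fell by 0.53, 0.77 and 0.65. Pik3cd, a leukocyte PI3 kinase subunit, rose by 0.79 (adjusted p = 0.00494).

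Of 9 negative regulators, 3 rose with aPD1: Ptpn6 (0.82, adjusted p = 0.00914), Inpp5d (0.63, adjusted p = 0.0027) and Cblb (0.47, adjusted p = 0.0153), the genes of the phosphatases SHP-1 and SHIP-1 and of a ubiquitin ligase. With aGMCSF, aIL2RB and both, 6, 6 and 7 fell. Cish, a feedback inhibitor induced by STAT5, was not called with aPD1 (0.57, adjusted p = 0.27) and fell by 0.81 with aGMCSF (adjusted p = 0.0378), by 2.03 with aIL2RB (adjusted p = 3.62e-07) and by 2.92 with both (adjusted p = 4.51e-10). Socs2, of the same family, fell by 1.05, 0.79 and 0.68. IL-2 also induces Cish in T cells, so the gene is not specific to GM-CSF.

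Of 14 responsive genes tested, 3 rose with aPD1: Spi1 (0.62, adjusted p = 0.00863), Mcl1 (0.31, adjusted p = 0.0111) and Mrc1 (0.52, adjusted p = 0.0221). Spi1 encodes PU.1, a transcription factor of myeloid cells, and fell by 0.71, 0.93 and 0.98 with aGMCSF, aIL2RB and both. In the same order, 7, 8 and 7 genes fell. Ccl22, a chemokine of dendritic cells and macrophages, had log2 fold changes of -1.78 (adjusted p = 0.00813), -1.62 (adjusted p = 0.00439) and -2.72 (adjusted p = 1.99e-05). Irf4 fell by 1.45, 2.19 and 2.00, and Pparg, which GM-CSF induces in alveolar macrophages, by 1.00, 1.62 and 1.04. Neither was called with aPD1 (Irf4 1.10, adjusted p = 0.113; Pparg 0.82, adjusted p = 0.153).

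Markers of macrophages and monocytes, neutrophils and conventional dendritic cells were called in part, in the same direction as the subunits, and those of basophils and mast cells were not called. The shares of all genes called, 6.17% higher with aPD1 and 8.75%, 14.5% and 14.3% lower with aGMCSF, aIL2RB and both, apply to these counts and to those of the next paragraph. Of 8 macrophage and monocyte markers, 6 rose with aPD1 (median log2 fold change 0.62) and 6, 7 and 7 fell with aGMCSF, aIL2RB and both. Their summed level was 2087 to 2532 CPM with isotype, 2422 to 4701 with aPD1, 1842 to 2241 with aGMCSF, 1696 to 2616 with aIL2RB and 1472 to 3121 with both. Adgre1, which encodes F4/80, rose by 0.73 and Lyz2, lysozyme, by 0.59. Of 5 neutrophil markers tested 1 rose, Csf3r, and 4, 1 and 3 fell with aGMCSF, aIL2RB and both. Their summed level, 10.5 to 14.7 CPM with isotype, was 17.8 to 44.9 with aPD1, 9.52 to 17.4 with aGMCSF, 6.63 to 16.7 with aIL2RB and 5.11 to 30.3 with both. Of 5 conventional dendritic cell type 1 and 5 type 2 markers, 1 each rose (Irf8, 0.84; Sirpa, 0.46). With aGMCSF, aIL2RB and both, 1, 3 and 3 type 1 markers fell and 3, 3 and 3 type 2 markers. The type 1 markers summed to 60.4 to 73.8 CPM with isotype, 84.0 to 131 with aPD1, 61.6 to 82.2 with aGMCSF, 51.7 to 93.4 with aIL2RB and 38.95 to 105 with both. The type 2 markers summed to 215 to 264 CPM with isotype, 266 to 389 with aPD1, 202 to 241 with aGMCSF, 143 to 223 with aIL2RB and 132 to 307 with both. The sums of neutrophil and of both dendritic cell lists did not overlap between isotype and aPD1, whereas that of the macrophage list did. The highest count in a tumor was 981 for Csf3r and at most 43.6 for any other neutrophil marker. It was 2571 for Irf8 and at most 395 for the other type 1 markers, and 8718 for Sirpa and at most 163.9 for the other type 2 markers. These sums thus follow mainly Csf3r, Irf8 and Sirpa, the only markers of these lists called with aPD1. Of the basophil and mast cell markers, a class that IL-3 acts on, 4 of 7 were tested and none was called in the 4 main comparisons. Their summed level was 7.93 to 10.7 CPM with isotype and 9.84 to 17.7 with aPD1 (median 12.8). It was 7.15 to 16.3 with aGMCSF (median 8.62), 6.20 to 20.5 with aIL2RB (median 12.9) and 6.57 to 28.3 with both (median 16.8). Eosinophil markers were near 0: the 5 genes summed to at most 1.86 CPM in any tumor, with Prg2 and Epx at no more than 2 counts. The part of these cells in the subunit changes was not tested.

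All 4 muscle markers rose with aPD1 (median log2 fold change 4.41), with a summed level of 0.14 to 21.5 CPM with isotype and 0.344 to 606 with aPD1; their part in the subunit changes was not tested. No T and NK cell marker of 7 was called with aPD1, but their summed level was higher in every aPD1 tumor (54.4 to 113 CPM) than in every isotype tumor (32.3 to 46.1), and 1, 6 and 7 fell with aGMCSF, aIL2RB and both. The part of these cells in the subunit changes was not tested either. Of 4 B cell markers none was called with aPD1 and 2 fell with aIL2RB. Of 4 mature dendritic cell markers 1 rose with aPD1, of 4 plasmacytoid markers none, of 4 endothelial markers 2, and of 4 fibroblast markers 3 rose and 1 fell; no adipocyte marker of 4 and no MC38 or epithelial marker of 4 was called.

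Within 200 kb of the start of Csf2rb, 8 other genes besides Csf2rb2 start. Of these, 2 rose with aPD1, where 6.17% of all genes rose: Ncf4, a subunit of the phagocyte oxidase (0.57, adjusted p = 0.0414), and Pvalb, a muscle calcium-binding protein (4.24, adjusted p = 0.0255). Ncf4 also fell with aGMCSF (by 0.59), aIL2RB (by 0.90) and both (by 0.92). Ift27, Mpst and Tst were not called in any of the 4 main comparisons, and Kctd17 rose by 0.20 with aGMCSF and by 0.18 with aIL2RB. Il2rb, also within this distance, was not called with aPD1 (1.12) or aGMCSF (-1.13, adjusted p = 0.104) and fell by 3.55 with aIL2RB and by 3.17 with both. Tmprss6, a serine protease gene with a mean of 5.29 counts, was not called with aPD1 (2.26, adjusted p = 0.061) or aGMCSF (-1.001, adjusted p = 0.297) and fell by 1.82 with aIL2RB and by 3.07 with both. Pvalb fell by 3.06 with aIL2RB. Of the 8 neighbors, Ncf4 was the one called in all 4 main comparisons in the directions of the beta chains.

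The beta chains and Csf2ra moved together, and of these the promoters of Csf2ra and Csf2rb2 were matched in RefSeq (GRCm38.p6), while that of Csf2rb is not shown. The 250 bases before the RefSeq start sites of Csf2ra and Csf2rb2 are given, each read on the gene's own minus strand, with 2 motifs in capitals. The Csf2ra site lies inside the gene as GENCODE places it. The end of its window is thus within that gene, as is most of the Il3ra window within Il3ra. GAGGAA, a core bound by PU.1, and TTCNNNGAA, the STAT5 form, were searched on both strands, where they can overlap; GAGGAA in the other direction reads TTCCTC. Of 27025 promoter windows of 300 bases, 28.3% held GAGGAA and 8.36% TTCNNNGAA. The 250 Csf2ra bases, at chr19:61228419-61228668, held GAGGAA 2 times in a row, partly within the gene as GENCODE places it. Those of Csf2rb2, at chr15:78305722-78305971, held 1 of each motif. In the windows of 300 bases, Csf2ra held 2 GAGGAA and no TTCNNNGAA, and Csf2rb2 held 2 GAGGAA and 1 TTCNNNGAA. The window of Il3ra held neither. The matches are a description of the letters and not of binding.
Csf2ra: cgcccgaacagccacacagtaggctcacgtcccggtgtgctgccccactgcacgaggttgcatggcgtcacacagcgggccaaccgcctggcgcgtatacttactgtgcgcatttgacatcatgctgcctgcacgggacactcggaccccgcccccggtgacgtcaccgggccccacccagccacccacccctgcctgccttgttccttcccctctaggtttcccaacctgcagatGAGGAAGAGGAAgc
Csf2rb2: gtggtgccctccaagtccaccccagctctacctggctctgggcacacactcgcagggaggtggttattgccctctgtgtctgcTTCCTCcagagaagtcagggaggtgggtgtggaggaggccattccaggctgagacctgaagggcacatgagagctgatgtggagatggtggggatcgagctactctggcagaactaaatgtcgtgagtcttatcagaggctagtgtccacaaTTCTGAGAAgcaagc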

How the data were processed

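Poly(A) RNA of 42 MC38 tumors was sequenced as paired-end reads, and the authors aligned the reads with Bowtie 1.2.3 to transcriptomes of the founder strains of the mouse cross (GRCm38, GENCODE) and estimated counts per gene with gbrs. The deposited values are expected counts, of which 15.2% were not whole; they were rounded for testing. Reads that fit several genes are divided by estimate, which affects Csf2rb and Csf2rb2 and not their sum. The antisense overlap of Il3ra was not separated here, and whether counting used strand is not given in the sources used here.

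Symbols came from the annotation for 26629 of 26811 genes. Genes were kept by filterByExpr (minimum count 10, minimum total 15), leaving 16932. Comparisons were fitted with edgeR 4.0.16 (R 4.3.3; TMM scaling, quasi-likelihood test, all 42 tumors in 1 fit, Benjamini-Hochberg adjustment over all genes; called at 0.05), after the script was tested on simulated data. The SE of a log2 fold change is its size over the square root of F, and 95% intervals are 1.96 SE. The study's methods name DESeq2, which was an alternative here (version 1.42.0). Ratios of counts were compared by exact two-sided permutation tests (100000 draws where both groups have 10 or more tumors), adjusted over 10 pairs of groups; 9 ratios gave 90 tests. Named genes were the 4 members, the lists, neighbors within 200 kb of Csf2rb and the 5 genes most alike to each member. One result of the signal transduction list is not reported here, though the counts over that list are of all its genes. Members and lists were chosen with earlier results of these data known, and so was the division into sets. P-values measure the spread between tumors; with 1 tumor per mouse not stated, this may not be the spread between mice. The alternatives were another scaling, other filters, DESeq2, fewer groups, a replicate block, a set term, each set alone, and each tumor left out.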

Additional observations from a re-analysis of the deposited data

Results flagged for a closer look

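Among 45 groups of 4 to 10 tumors tested for a tumor standing apart, 1 was found, and chance gives about 1 in 20. The Csf2rb level of isotype control replicate 4, 29.7 CPM, was far below the other 4 isotype tumors.

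The effect of one blocking antibody differed with the presence of the other for the beta chains. The interaction was 0.80 for Csf2rb, 1.12 for Csf2rb2 and 0.93 for their sum on the log2 scale (edgeR, all called). It was weaker and not called in the second set of replicate numbers (0.36, 0.75 and 0.51). None of these was called in a fit with a term for the replicate number either. The difference of the interaction between sets was not called for any subunit.

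The effect of the double blockade against aPD1 differed between the sets of replicate numbers, by -1.24 for Csf2rb, -1.53 for Csf2rb2, -1.35 for their sum and -1.23 for Csf2ra (second minus first, log2 scale, edgeR). Against isotype, Csf2rb2 differed by -1.49. Against aPD1 + aGMCSF, Csf2ra differed by -0.93. Against aPD1 + aIL2RB, Csf2rb differed by -0.97 and Csf2ra by -0.90. The double-blockade tumors take part in all 8 of these differences, which are thus not independent. What set the 2 sets apart cannot be told from the labels.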

How the results depend on the processing

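The sum of Csf2rb and Csf2rb2 with aPD1 and with each blockade kept its call under every alternative except in the first set alone; no value of the 25 main results changed sign under any alternative. Main comparisons lost a call in the first set alone, which has 2 isotype and 3 aPD1 tumors. There aPD1 against isotype gave 0.80 for Csf2rb, 1.21 for Csf2rb2, 0.96 for the sum and 0.48 for Csf2ra; aGMCSF against aPD1 gave -0.76, -0.92, -0.83 and -0.55, and -0.46 for Il3ra; aIL2RB against aPD1 gave -0.41 for Il3ra; and double blockade against aPD1 gave -0.68 for Csf2rb2, -0.39 for Csf2ra and -0.32 for Il3ra. In the second set alone Il3ra with aGMCSF was -0.60, and the interaction was 0.36 for Csf2rb, 0.75 for Csf2rb2 and 0.51 for the sum, none called. With library size as the only scaling, Csf2ra with aPD1 was 0.55, Il3ra with aGMCSF -0.49 and the Csf2rb interaction 0.74; with a filter of 5 counts in total the first 2 were 0.63 and -0.56. All these lost their call, as did the Csf2rb interaction fitted on the groups compared (0.80). The Csf2ra interaction was called with DESeq2 (0.67) and with at least 10 counts in every tumor (0.68). Of 67 pairs of tumors with 1 replicate number, 27 correlated above 0.1 (median 0.0369, lowest -0.287), and other pairs had a median of -0.00495. Whether the numbers pair the tumors is not settled by this. With the replicate block the interaction was 0.59 for Csf2rb, 0.76 for Csf2rb2 and 0.65 for the sum, and Il3ra with aGMCSF was -0.53, none called; no other of the 25 calls changed.

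Leaving out 1 tumor moved Csf2ra with aPD1 between 0.54 and 0.73, Il3ra with aGMCSF between -0.64 and -0.48, and the interaction between 0.66 and 0.88 for Csf2rb, 0.94 and 1.21 for Csf2rb2, 0.78 and 1.02 for the sum and 0.53 and 0.75 for Csf2ra. Calls of the ratio of the sum to Csf2ra also changed: the log2 difference ranged from 0.36 to 0.49 with aPD1, and against aPD1 from -0.37 to -0.26 with aGMCSF, -0.34 to -0.26 with aIL2RB and -0.39 to -0.31 with both. The causes were not tested. The filter on low counts left Csf2 and Il5ra, at no more than 13 and 11 counts in a tumor, out of the test. Il3ra had 20 to 145 counts per tumor, yet its SE was 0.15 to 0.21 over the 10 comparisons of groups, as for Csf2ra (0.15 to 0.21).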
